A study of Mus musculus with 12 samples.

Results

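BATF binding was examined at 10 genes that encode RUNX and ETS transcription factors and the partner of RUNX proteins, *Runx1*, *Runx2*, *Runx3*, *Cbfb*, *Ets1*, *Ets2*, *Fli1*, *Etv6*, *Elf1* and *Gabpa*, out of 21000 protein-coding genes. The genes were listed by family and hold only part of the ETS family. No measured value enters the rule, but the list was chosen with earlier results of these data known. A peak was assigned to a gene when its summit, the position of highest signal, lay in the gene body or within 100 kb of it. By that rule 18 of the 5873 distinct BATF peak regions in the 4 BATF libraries belonged to the 10 genes. At least 1 peak was assigned to 9 of the 10 genes, against 43.9% of all protein-coding genes, a share not matched for gene length.

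BATF ChIP-seq had been performed on naive CD4+ T cells of strain C57BL6/J mice, activated through CD3 and CD28 and cultured for 5 days. Th9 cells received IL-4, IL-2 and TGF-β1 with antibody to IFNγ, and Th17 cells received IL-6, TGF-β1, IL-23 and IL-1β with antibodies to IFNγ, IL-4 and IL-2. There were 2 BATF libraries per cell type, numbered 1 and 2 in Th9 cells and 3 and 4 in Th17 cells, each matched by number to an IgG library and to an input library made without antibody. No genetic change or stimulation before harvest is given for any group. For the study as a whole, Methods give adult mice of both sexes, and they give neither sex nor age per library. Nothing says whether the libraries of a cell type came from separate cultures, so differences between them may be technical. Peak lists measure no RNA, so the cell types stand as labelled and it is not known from these data whether a gene near a peak was expressed.

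RUNX proteins bind DNA through their Runt domain as a pair with CBFβ, the product of *Cbfb*, which does not contact DNA itself and strengthens the binding. In T cells, RUNX3 is best known for its role in CD8 T cells and in silencing *Cd4*, and RUNX1 acts throughout thymocyte development and in naive T cells. ETS proteins share a winged helix domain that reads a core of the letters GGAA. ETS1 is abundant in resting lymphocytes, and ETS and RUNX proteins bind side by side at several T cell enhancers. BATF is a basic leucine zipper protein that pairs with JUN proteins on AP-1 sites and, together with IRF4, on composite sites.

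The sequences under 8 of the 18 peaks are given first, since the sites described afterwards differ in which letters they hold. Shown are the *Runx1* peak closest to a start site, a *Runx2* peak with RUNX letters beside the strongest *Runx2* peak without any, the 3 peaks in *Ets1* introns, an *Etv6* peak with ETS letters, and the *Elf1* peak. Each run is the forward strand of the RefSeq GRCm38 sequence, 5′ to 3′, centred on the summit and 201 bases long. Capitals mark matches on either strand to AP-1 (TGACTCA or TGAGTCA), bZIP:IRF (TTTCNNNNTGA or GAAATGA), RUNX (TGTGGTT), ETS (GGAAGT) and STAT (TTCNNNGAA) letters.
*Runx1* intron 3, Th9, chr16:92693546-92693746: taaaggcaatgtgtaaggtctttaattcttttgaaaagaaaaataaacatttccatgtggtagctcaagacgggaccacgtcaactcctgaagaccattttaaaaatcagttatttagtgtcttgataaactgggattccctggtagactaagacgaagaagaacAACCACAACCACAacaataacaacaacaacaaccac
*Runx2* intron 3, Th9, chr17:44655214-44655414: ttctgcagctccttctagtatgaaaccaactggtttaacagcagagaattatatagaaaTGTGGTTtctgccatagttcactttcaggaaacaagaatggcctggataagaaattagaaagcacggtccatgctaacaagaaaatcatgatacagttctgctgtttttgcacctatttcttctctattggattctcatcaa
*Runx2* intron 3, strongest of the gene, Th9, chr17:44663513-44663713: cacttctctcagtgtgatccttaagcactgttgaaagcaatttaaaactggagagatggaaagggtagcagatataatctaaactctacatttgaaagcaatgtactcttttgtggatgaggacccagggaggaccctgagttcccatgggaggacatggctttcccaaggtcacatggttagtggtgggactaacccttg
*Ets1* intron 2, Th17, chr9:32652448-32652648: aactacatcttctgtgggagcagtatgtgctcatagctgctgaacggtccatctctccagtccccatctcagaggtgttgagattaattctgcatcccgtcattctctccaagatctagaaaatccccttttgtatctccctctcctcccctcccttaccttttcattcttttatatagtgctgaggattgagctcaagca
*Ets1* intron 2, Th9, chr9:32661707-32661907: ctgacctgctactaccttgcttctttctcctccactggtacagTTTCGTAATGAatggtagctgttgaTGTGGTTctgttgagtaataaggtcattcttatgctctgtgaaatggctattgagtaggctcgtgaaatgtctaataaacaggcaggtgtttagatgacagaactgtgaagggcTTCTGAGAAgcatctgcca
*Ets1* intron 8, Th9, chr9:32745138-32745338: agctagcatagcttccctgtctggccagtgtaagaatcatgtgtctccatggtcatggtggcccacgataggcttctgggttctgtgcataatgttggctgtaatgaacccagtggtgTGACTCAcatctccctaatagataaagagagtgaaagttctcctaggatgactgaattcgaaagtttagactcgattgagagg
*Etv6* intron 3, Th17, chr6:134220359-134220559: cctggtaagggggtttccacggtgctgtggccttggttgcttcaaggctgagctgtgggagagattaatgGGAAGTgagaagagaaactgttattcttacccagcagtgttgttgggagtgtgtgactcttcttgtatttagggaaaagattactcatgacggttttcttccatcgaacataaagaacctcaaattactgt
*Elf1* upstream, Th9, chr14:79393393-79393593: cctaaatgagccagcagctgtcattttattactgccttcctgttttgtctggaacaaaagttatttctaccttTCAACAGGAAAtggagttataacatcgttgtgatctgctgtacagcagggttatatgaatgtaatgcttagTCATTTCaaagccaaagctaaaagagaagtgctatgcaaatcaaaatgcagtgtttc

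In Th9 cells, the peak in *Runx1* held 2 overlapping RUNX matches, and 48.3% of its window was repeat-masked. The intron 2 peak of *Ets1* in Th9 cells held a bZIP:IRF, a RUNX and a STAT match in 1 window, more kinds than at any other of the 18 peaks. *Ets1* intron 8 had the full AP-1 site, TGACTCA at chr9:32745256-32745262, 21 bp from the summit. The strongest *Runx2* peak and the *Ets1* peak in Th17 cells had no capitals, meaning only that none of these letters lay in those windows.

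The number of peaks at the 10 genes followed single libraries. In Th9 cells library 1 held 9 peaks at the 10 genes and library 2 held 1. In Th17 cells library 3 held 8 and library 4 held 0. These were 0.527%, 0.415%, 0.195% and 0% of lists of 1709, 241, 4111 and 199 peaks. The mean was 5 ± 5.66 peaks (SD, n = 2) in Th9 cells and 4 ± 5.66 (SD, n = 2) in Th17 cells, a difference (Th17 minus Th9) of -1, and an exact two-sided permutation test gave p = 0.667. With 2 libraries per cell type that test cannot give a p below 0.33. The libraries of a cell type differed from each other more than the cell types did.

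Peaks were present at 9 of the 10 genes against 43.9% of all protein-coding genes. In Th9 cells 6 genes had a peak (*Runx1*, *Runx2*, *Runx3*, *Cbfb*, *Ets1* and *Elf1*) against 16.9% of all genes, and in Th17 cells 6 genes had one (*Runx1*, *Cbfb*, *Ets1*, *Ets2*, *Fli1* and *Etv6*) against 35.0%. *Runx1*, *Cbfb* and *Ets1* had peaks in both cell types, 3 of 10 genes against 7.97%. In none of these 3 did the Th9 and Th17 peaks overlap. All 18 regions were called in exactly 1 library, 10 in Th9 cells and 8 in Th17 cells, while 4.73% of all regions were called in 2 or more libraries. None of the 10 genes had a region called in 2 or more libraries, against 3.20% of all genes. A site without a peak in the other libraries was below the threshold there and is not shown to be unbound, so no site here is assigned to 1 cell type by more than 1 list.

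**Figure D1:**
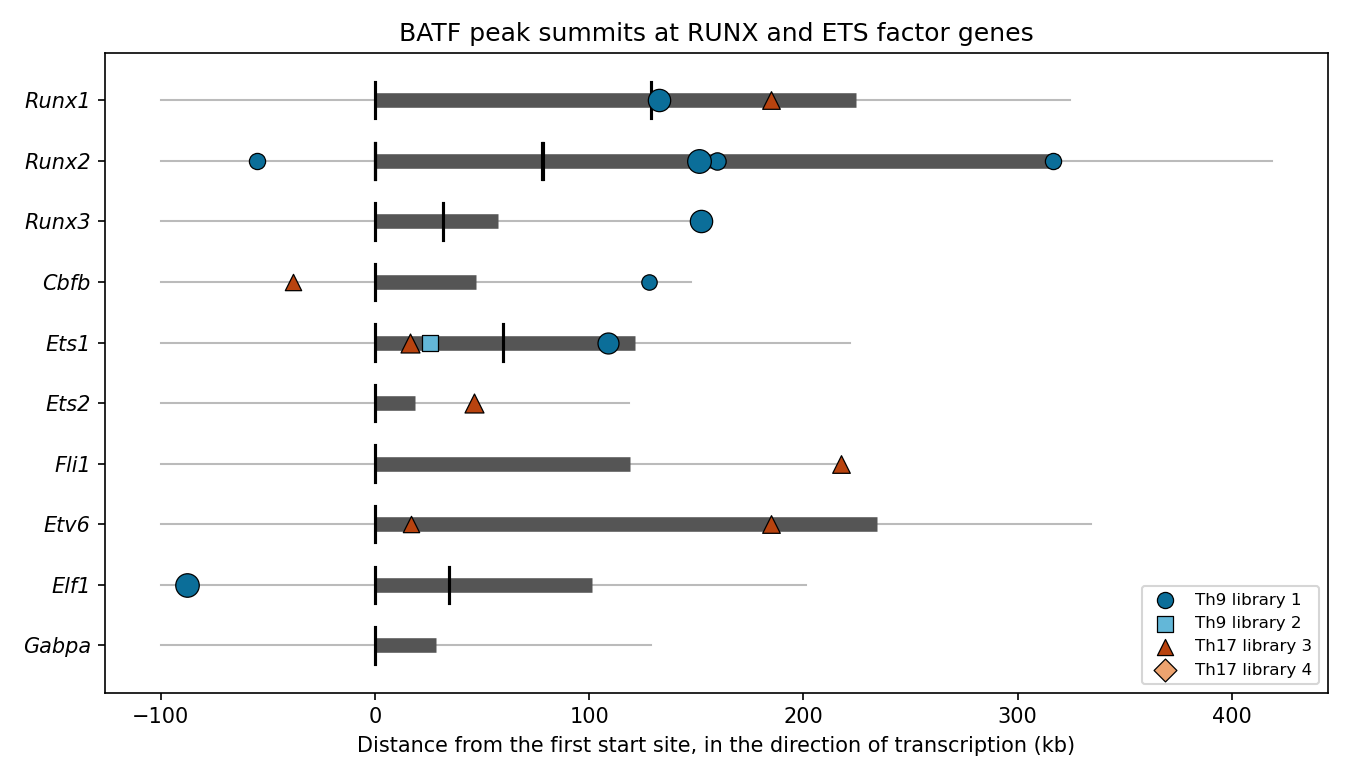
Summits of 17 of the 18 BATF peaks at the 10 genes, by distance in kb from the first start site in the direction of transcription. Dark bars are gene bodies, thin lines the 100 kb on either side, vertical ticks start sites, and symbols peaks of each library with their area rising with −log10 q. Of the peaks drawn, 10 lie in gene bodies, 7 outside, and none belongs to Th17 library 4 or to *Gabpa*.

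Window length has to be set beside these counts, since a longer gene has more room for a peak. The gene body with 100 kb on either side had a median of 310 kb for the 10 genes and 217 kb for all protein-coding genes. Among all genes with windows of 400 to 600 kb, the class of *Runx1*, *Runx2* and *Etv6*, 66.1% had a peak and the mean was 1.2 peaks, where these genes had 2, 4 and 3. Between 300 and 400 kb, the class of *Ets1*, *Fli1* and *Elf1*, 56.7% had a peak with a mean of 0.988, and these genes had 3, 1 and 1. In the class of *Runx3*, 250 to 300 kb, 50.9% had a peak, in that of *Cbfb* and *Gabpa*, 220 to 250 kb, 44.8%, and in that of *Ets2*, 200 to 220 kb, 38.4%. With 3 or more peaks, *Runx2*, *Ets1* and *Etv6* were 3 of 10 genes against 5.04% of all genes. That share is not matched for window length, and all peaks of *Runx2* came from library 1 and all of *Etv6* from library 3. Over the union of the windows, 3.17 Mb, there were 5.68 peaks per Mb, against 2.30 per Mb over the whole genome, which also holds regions without genes.

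**Figure D2:**
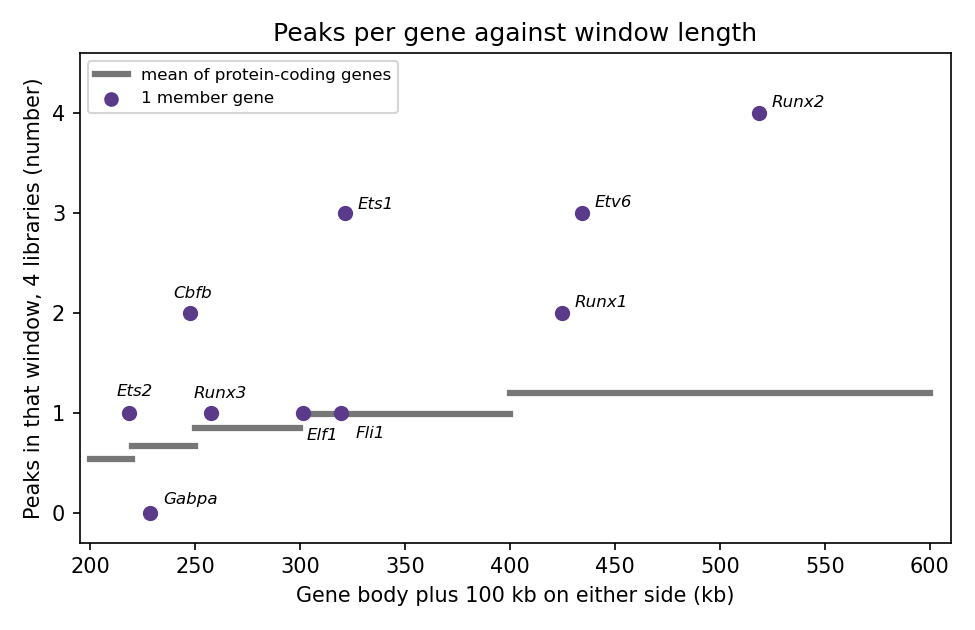
Number of BATF peaks in each gene's window, summed over the 4 libraries, against the window's length in kb. Points are the 10 genes and grey bars the mean of all protein-coding genes in each length class. *Runx1*, *Runx2*, *Cbfb*, *Ets1* and *Etv6*, with 2 to 4 peaks, stand above their bars. *Runx3*, *Ets2*, *Fli1* and *Elf1*, with 1 peak each, also do, as their class means are 0.536 to 0.988. *Gabpa* is at 0.

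*Runx1*, on the minus strand at chr16:92601466-92826074, has a distal and a proximal start site, which give RUNX1 proteins with different N-termini. Its Th9 peak in library 1, at chr16:92693497-92693738 in intron 3, lay 3683 bp downstream of the proximal start site. No other of the 18 peaks was within 10 kb of a start site of its own gene, so 1 of 10 genes had such a peak against 5.78% of all genes. Fold enrichment was 7.03 and −log10 q 6.42, above 79.9% of the peaks of that library. Its Th17 peak, in library 3 at chr16:92641184-92641354 in intron 6, was weaker within its own list, with fold enrichment 5.08 and −log10 q 3.32, above 24.7% of the list. The summits were 52423 bp apart, and the Th17 peak held an ETS match where the Th9 peak held RUNX matches.

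*Runx2*, best known as the master regulator of bone-forming cells, had the most peaks, 4, all from Th9 library 1. Along its body at chr17:44495987-44814797, on the minus strand, 3 summits lay in introns, at chr17:44663560-44663725 and chr17:44655161-44655347 in intron 3 and chr17:44498220-44498435 in intron 5, the last intron peak near the gene's 3′ end. Fold enrichments were 7.55, 5.03 and 4.53 in that order, and −log10 q 7.43, 3.15 and 2.53. Only the first stood high in its list, above 86.2% of peaks, while the other 2 stood above 21.0% and 3.57%. Each of the 2 weaker intron peaks held 1 RUNX match, at -38 bp and -73 bp from the summit, where a negative distance is towards the lower coordinate. The remaining peak, at chr17:44869918-44870095 and 55251 bp upstream, lay in intron 2 of *Supt3*, which overlaps this stretch, and had fold enrichment 4.53, −log10 q 2.53 and a bZIP:IRF match.

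*Runx3*, at chr4:135120645-135177990 on the plus strand, had no peak in its body. The 1 peak assigned to it, in Th9 library 1 at chr4:135272980-135273212, lay 95068 bp downstream and only 298 bp from a start site of *Clic4*, an intracellular chloride channel gene. Its fold enrichment of 7.03 and −log10 q of 6.42 were the same as at *Runx1*, and its window had a GC content of 76.6%, against a median of 41.3% over all regions. No letters of the 5 motifs were in it.

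*Cbfb*, at chr8:105170674-105217989 on the plus strand, likewise had no peak in its body. A Th17 peak in library 3 at chr8:105132222-105132459 lay 38340 bp upstream in intron 1 of *Ces4a*, a carboxylesterase gene, 534 bp from that gene's start site, with fold enrichment 4.52 and −log10 q 2.60. A Th9 peak in library 1 at chr8:105298442-105298610 lay 80509 bp downstream in intron 2 of *E2f4*, a cell cycle factor, 835 bp from its start site, with fold enrichment 4.02 and −log10 q 2.11. Both were near the bottom of their lists, above 4.35% and 0.176% of peaks. The first held an ETS and a STAT match and the second none.

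*Ets1* had peaks in 3 of the 4 libraries, more than any other of the 10 genes, all in introns of the gene at chr9:32636241-32757820 on the plus strand. In Th17 library 3 the peak at chr9:32652398-32652568, in intron 2 and 16307 bp downstream of the first start site, had fold enrichment 5.65 and −log10 q 4.12. In Th9 library 2 the peak at chr9:32661711-32661885, also in intron 2, had fold enrichment 5.33 and −log10 q 2.85. These summits were 9259 bp apart, the shortest distance between member peaks of different libraries. In Th9 library 1 the peak at chr9:32745186-32745356 in intron 8 had fold enrichment 6.54 and −log10 q 5.46, above 70.2% of its list, against 43.2% and 15.4% for the intron 2 peaks. The libraries thus placed their *Ets1* peaks at 3 separate sites, and the Th9 libraries did not share one. Sharing was rare over the whole data, with 4.73% of all regions called in 2 or more libraries, so this is not particular to *Ets1*.

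*Ets2*, the close relative of *Ets1* at chr16:95702407-95721049, had 1 peak, in Th17 library 3 at chr16:95748702-95748936, 27694 bp downstream of the gene with no other start site closer. Fold enrichment was 5.65 and −log10 q 4.12, above 43.2% of the list. *Fli1*, an ETS gene of blood and vessel cells that neighbours *Ets1*, had 1 peak in the same library at chr9:32323625-32323800, with fold enrichment 5.08 and −log10 q 3.32. It lay 98506 bp downstream of *Fli1*, just inside the limit, in intron 2 of the potassium channel gene *Kcnj5*. The *Fli1* and *Ets1* bodies are 94788 bp apart, so 105 kb belonged to both windows, and that stretch held 0 peaks. The nearest peak beyond the limit for any of the 10 genes was at *Ets2*, 108989 bp from the gene in Th17 library 3, with fold enrichment 5.12 and −log10 q 3.56.

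*Etv6* encodes an ETS repressor required for blood stem cells in adult marrow, and its 3 peaks all came from Th17 library 3. Within the gene, at chr6:134035700-134270158 on the plus strand, 2 of them lay in introns. The intron 3 peak at chr6:134220259-134220476 had fold enrichment 5.08 and −log10 q 3.32, and the intron 1 peak at chr6:134052252-134052418 had 4.52 and 2.60. Both stood low in their list, above 24.7% and 4.35% of peaks, and each held an ETS match.

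*Elf1*, an ETS factor gene of lymphocytes at chr14:79481194-79582491, had 1 peak, in Th9 library 1 at chr14:79393384-79393602. It lay 87701 bp upstream of the gene, 2825 bp from a start site of *Naa16*, which encodes an acetyltransferase subunit, with fold enrichment 7.15 and −log10 q 7.30, above 85.4% of the list. It held 2 bZIP:IRF matches, at -22 bp and 47 bp from the summit. *Gabpa*, the DNA-binding subunit of GABP at chr16:84835124-84863779, had no peak in any library. Its nearest peak, outside the limit at 121822 bp, was in Th9 library 1 at chr16:84713253-84713427, with fold enrichment 6.70 and −log10 q 6.38, and the closest start site was that of *Mir155hg*, the host gene of a microRNA induced in activated lymphocytes.

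Most of the peaks were thus far from the start sites of the 10 genes themselves. The median distance to the gene's own nearest start site was 64334.5 bp. All 10 peaks within gene bodies were in introns, at 4 of the 10 genes (*Runx1*, *Runx2*, *Ets1* and *Etv6*) against 9.53% of all genes. The bodies of these 4, from 121580 bp in *Ets1* to 318811 bp in *Runx2*, are the longest of the 10. The share of all genes is not matched for body length. For 9 of the 18 peaks the gene had the nearest start site of any annotated gene, and the other 9 were closer to a start site of another gene. Counting the start sites of any gene, 5 of the 18 peaks had one within 10 kb (those of *Runx1*, *Clic4*, *Ces4a*, *E2f4* and *Naa16*), against 21.0% of all regions.

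Strength differed between the lists. In Th9 library 1 the 9 peaks had a median −log10 q of 5.46, where the whole list had 3.82, and 5 of them reached 5 where 30.4% of the list did. In Th17 library 3 the 8 peaks had a median of 3.32 against 4.12, and 1 of them reached 5 where 41.7% of the list did. The 1 peak of Th9 library 2, in *Ets1*, was at 2.85 against a list median of 5.24. In all, 10 of the 18 peaks were below the median of their list. Counted by gene, 6 of 10 genes, among them *Runx1*, *Runx2*, *Runx3*, *Ets1* and *Elf1*, had a peak with −log10 q of 5 or more, against 21.9% of all genes.

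**Figure D3:**
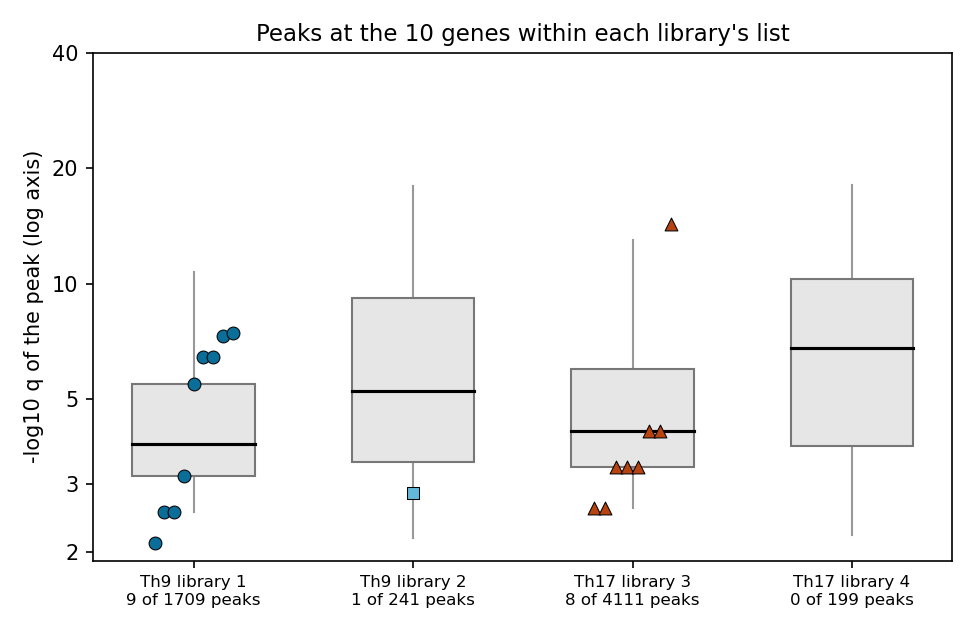
The −log10 q of each peak at the 10 genes (symbols) within the list of its library, on a log axis. Boxes span the quartiles of all peaks of the list with the median as a line, and whiskers reach from the 5th to the 95th percentile. In Th9 library 1, 5 of 9 peaks are above 5, and in Th17 library 3 1 of 8 is.

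Of the 18 peaks, 14 were also called with input alone and with IgG alone as the control. The *Cbfb* peak in Th9 cells and the *Fli1* peak were missing from the IgG lists, and the upstream *Runx2* peak and the *Etv6* intron 3 peak from the input lists. Each of the 4 had a −log10 q of 3.32 or less. The Th9 *Runx1* peak had −log10 q 4.91 with input and 6.4 with IgG alone.

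Motif letters at these regions were counted within 100 bp of the summit, beside the same count over all 5873 regions. The AP-1 site was in 1 of 18 regions (5.56%, exact binomial 95% interval 0.141% to 27.3%), the *Ets1* intron 8 peak, against 17.0% of all regions. With 1 mismatch outside its TGA it was in 8 (44.4%, 21.5% to 69.2%) against 58.4%. AP-1 letters depend on peak strength over the whole data, with 9.36% of 3771 peaks with −log10 q from 2 to 5 and 33.2% of the 2489 stronger peaks. Of the 12 member peaks in the lower range 0 had the site, and of the 6 in the upper range 1 did. A bZIP:IRF match was in 3 regions (16.7%, 3.58% to 41.4%) against 16.7%, and a STAT match in 2 (11.1%, 1.38% to 34.7%) against 8.87%.

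The letters of the factors encoded by these genes gave similar counts to each other. RUNX letters were in 4 regions, 1 in *Runx1*, 2 in *Runx2* and 1 in *Ets1* (22.2%, 6.41% to 47.6%), against 7.20% of all regions. Those in *Runx1* lay in a stretch of short repeated letters. ETS letters were in 4 regions, 1 at *Runx1*, 1 at *Cbfb* and 2 at *Etv6* (22.2%, 6.41% to 47.6%), against 13.0%. The 4 regions with RUNX letters were all Th9 peaks and the 4 with ETS letters all Th17 peaks. That difference was noticed in these 18 regions and was not tested. The ETS ones all came from library 3, and the RUNX ones from library 1 except that in *Ets1*, from library 2. Cell type can therefore not be told apart from library here. The intervals, which cover counting error only, included the share of all regions for every one of the motifs. Of the 18 windows 12 had no repeat-masked bases, with a median masked share of 0% against 13.4% over all regions, and the median GC content was 45.0%.

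The rest of the ETS family and the partners of RUNX and GABP were counted by the same rule. Of 30 such genes 16 had a peak, against 43.9% of all protein-coding genes. Among the 16 were 11 of 20 ETS genes, both GABP partners (*Gabpb1* and *Gabpb2*) and 3 of 8 RUNX cofactors. Th9 peaks were at 7 of the 30 genes, against 16.9% of all genes, and Th17 peaks at 9, against 35.0%. None of the 30 had peaks in both cell types, against 7.97% of all genes, or in 2 libraries. A region called in 2 or more libraries, found at 3.20% of all genes, was thus at none of them. A summit in the gene body was found at 1, *Erg*, against 9.53% of all genes. The other family and partner genes named here were chosen after their values were seen. *Tle3*, a corepressor that RUNX proteins recruit, had 3 peaks in Th17 library 3, the strongest 7406 bp upstream of its start site with fold enrichment 12.4 and −log10 q 18.3. *Elk4*, a serum response cofactor of the ETS family, had 1 Th9 peak in library 1, 2715 bp upstream, with fold enrichment 8.96 and −log10 q 10.6. *Elf2*, the close relative of *Elf1*, had 1 Th17 peak in library 3, 734 bp upstream, with fold enrichment 6.78 and −log10 q 6.

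**Figure D4:**
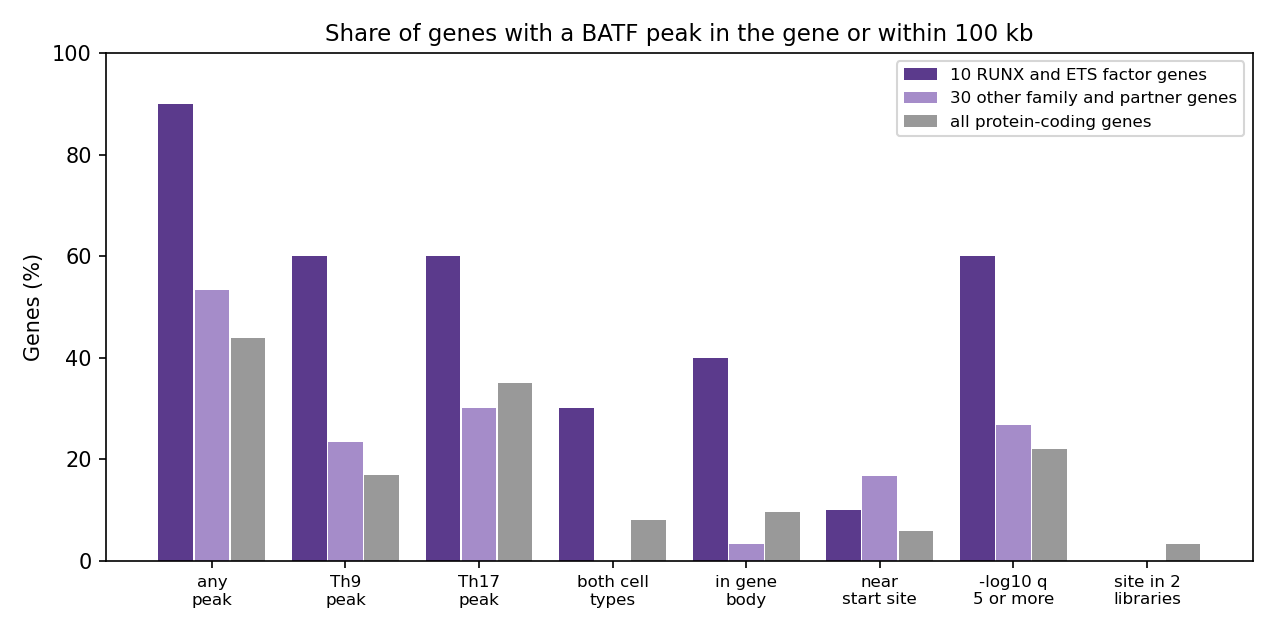
Percent of genes with each kind of BATF peak, for the 10 genes, the 30 other family and partner genes, and all 21000 protein-coding genes. The 10 genes stand above all genes for any peak (9 of 10 against 43.9%) and for peaks in both cell types (3 of 10 against 7.97%), and no gene of either list has a site called in 2 libraries.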

How the data were processed

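The data were BATF ChIP-seq peaks of Th9 and Th17 cells, in 3 lists per BATF library (input, IgG or both as control). Per Methods and the submitters' processing notes, the authors trimmed reads with Trim Galore 0.4.3, aligned them with Bowtie2 (Methods give no version for ChIP-seq) to mm10 and called peaks with MACS2 2.1.0 per library, in paired-end mode with duplicates kept. No filter against problem regions is stated. The authors deposited for each peak a fold enrichment, which is a ratio to local background, a −log10 q-value and the summit. The control is known from the list's name only. The lists hold no read counts, so the depth of each library is not known from them (Methods give only 1 approximate figure for all libraries), and the number of peaks, 199 to 4111 per library, limits the precision.

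Peaks called against input and IgG together were the main lists. Summits were assigned to gene bodies of curated RefSeq transcripts (release 108.20200622, GRCm38, the mm10 build), and peaks merged at 1 bp of overlap. Merging and the searches for AP-1, RUNX, ETS and STAT letters were tested on simulated data, and the bZIP:IRF search was not. The window limits were checked on planted summits without running the assignment step itself. Python 3.11.15, numpy 2.4.6 and scipy 1.17.1 were used. Shares have exact Clopper-Pearson 95% intervals. Fold enrichment and q were compared within lists, except that 1 cut of −log10 q at 5 was applied to all 4 libraries. The share of a list reaching 5 ran from 30.4% in Th9 library 1 to 65.8% in Th17 library 4. The rule for naming took the peaks of the 10 genes, other genes where a peak lies in or nearest to them, and other family genes with peaks in both cell types or 2 libraries, of which there were none, so the other family genes in the text were chosen after their values were seen. The gene lists were chosen with earlier results of these data known. Alternatives were a stricter q, other controls, windows, overlaps and motif settings, equal numbers of top peaks and leaving out each library. Of the 18 peaks 1 is counted but not described singly here. ATAC-seq and STAT5b data were not analysed here.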

Additional observations from a re-analysis of the deposited data

Results flagged for a closer look

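Lists called against a single control held peaks at the 10 genes that were absent from the lists called against both controls. In the input list of Th17 library 3 there was 1, at chr14:79405716-79406060, 75414 bp upstream of *Elf1* and nearest to *Mtrf1*, with fold enrichment 6.78 and −log10 q 5.99. It would add a Th17 peak to a gene that otherwise had a Th9 peak only. In the IgG list of the same library there was 1, at chr16:95763912-95764080, 42941 bp downstream of *Ets2*, with fold enrichment 4.08 and −log10 q 2.20, among the weakest of that list. Neither held the AP-1 site.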

How the results depend on the processing

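Of 156 recalculated values 99 were classed as unchanged, 54 as moved and 3 as reversed in direction. The unchanged class allowed shifts in size, such as the RUNX share going from 22.2% to 11.1% within 50 bp of the summit. With a −log10 q of at least 5, 1 gene kept a Th17 peak, 0 genes had both cell types, and 6 regions were left (5 in Th9 and 1 in Th17 cells), with ETS and STAT shares of 0%. Requiring both libraries of a cell type left 0 genes and 0 regions, so no AP-1 share could be given. With the 199 strongest peaks per library, 2 genes (1 per cell type, 0 with both) and 2 regions (1 per cell type) were left, and the AP-1 share was 0%. Counting gene bodies alone, or with 10 kb, gave 4 genes (3 in each cell type) and 10 regions (6 Th9, 4 Th17). With 50 kb there were 3 Th9 genes and 6 Th9 regions, and the difference in peaks per library turned to 0.5. Where the gene had to have the nearest start site there were 5 genes (3 in each cell type, 1 with both) and 9 regions (6 Th9, 3 Th17). Within 50 bp of the summit the share was 0% for STAT, 11.1% for RUNX, 16.7% for ETS, 11.1% for bZIP:IRF and 5.56% for AP-1. With 1 mismatch the AP-1 share was 44.4%.

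Leaving out 1 library at a time gave 6 to 9 genes with a peak, 1 to 6 with a Th9 peak, 0 to 6 with a Th17 peak and 0 to 3 with both. Regions ranged from 9 to 18, from 1 to 10 in Th9 and from 0 to 8 in Th17 cells, and the AP-1 share from 0% to 10%. The difference in peaks per library ranged from -5 to 3, and turned positive without Th9 library 1 or Th17 library 4. The lowest Th9 counts, and 9 regions, came without Th9 library 1, and 0 Th17 genes without Th17 library 3.

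No paired analysis was possible because no replicate number occurs in both cell types (1 and 2 are Th9, 3 and 4 are Th17). Without read counts, a missing peak cannot be told apart from a shallow or weakly enriched library.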
